A study of Mus musculus with 9 samples.

Results

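Respiratory complex I, the NADH:ubiquinone oxidoreductase of the inner mitochondrial membrane, was followed through its nuclear genes in mouse gastrocnemius muscle. Members were the gene symbols that begin with Nduf and carry a subunit letter (a, b, c, s or v) and a number, with Ndufab1, and the assembly factors named Ndufaf with a number. The rule found 44 of the 23238 gene symbols in the count files, 37 subunits and 7 assembly factors. The muscles came from female C57BL/6 mice, an inbred laboratory strain, labelled 4 weeks of age. Every animal received 4 injections, given every other day, and a daily oral dose for 9 days. The Normal group received saline and water. The Cisplatin group received 3 mg/kg cisplatin, a platinum compound used in chemotherapy and given here to waste muscle, and water. In the RP group the cisplatin injections were combined with 100 mg/kg of RP by mouth. RP is not spelled out in the labels, and the series title names an extract of Paeonia lactiflora. Each group had 3 libraries, and no group received RP without cisplatin. The labels do not say that each library came from its own mouse, so p-values measure the spread between these libraries, which may be technical.

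Complex I takes electrons from NADH, passes them along a flavin and a chain of iron-sulfur clusters to ubiquinone, and pumps protons across the inner membrane, which feeds ATP synthesis in working muscle. Its N module binds NADH, its Q module reduces ubiquinone, and its proximal and distal membrane modules carry the proton pumps. Core subunits hold the catalytic chemistry, accessory subunits surround them, and assembly factors help to build the complex without staying in it. The core subunits of the membrane arm that mitochondrial DNA encodes and the accessory subunit Ndufb1 were not analysed here. Ndufa4 matched the rule, although the protein is now assigned to cytochrome c oxidase (complex IV).

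Library totals ranged from 8196030 to 8677236 counts for Normal, from 8352397 to 10678342 for Cisplatin and from 9178613 to 9826089 for RP. Each count is a 3′ tag, so counts were not scaled by gene length, and levels are CPM, counts scaled to a common library size, after TMM scaling. The TMM factor of Cisplatin 3 was 0.850, and those of the other libraries were 0.986 to 1.09. Ribosomal precursor Rn45s took 7.38% to 12.8% of the counts. Summed over 10 skeletal muscle fibre markers, levels were 111402 to 117450 CPM for Normal, 78217 to 101440.0 for Cisplatin and 112505 to 122586 for RP, and no marker was at 0 in every library. Fbxo32, a ubiquitin ligase of wasting muscle, was at 334 to 472 CPM in Normal libraries, 8155 to 11868 in Cisplatin libraries and 292 to 659 in RP libraries. The 9 slow fibre markers summed to 403, 2431 and 4526 CPM in the 3 Normal libraries, 125 to 607 in Cisplatin and 420.3 to 759.8 in RP.

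Under cisplatin most complex I subunit transcripts were lower than in Normal muscle. With edgeR's quasi-likelihood test and Benjamini-Hochberg adjustment over 12859 genes, called at an adjusted p under 0.05, 22 of 37 subunits fell and 3 rose. Over all genes tested, 28.2% fell and 26.3% rose, 54.5% in all. The subunits' log2 fold changes ran from -1.10 to 0.45 with a median of -0.48, beside a median of -0.08 over all genes, and 32 of 37 were below 0. In 23 of 37 subunits all 3 Cisplatin libraries were below all 3 Normal libraries, and in 3 all were above. Over all genes these shares were 31.9% and 30.3%, 62.2% in all. Of the 7 assembly factors 4 fell and 0 rose, with a median of -0.44. Without Normal 1, Normal 2 or Cisplatin 3 only 1 subunit rose, and without Normal 2, Cisplatin 1 or Cisplatin 2 only 2 assembly factors fell.

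**Figure D1:**
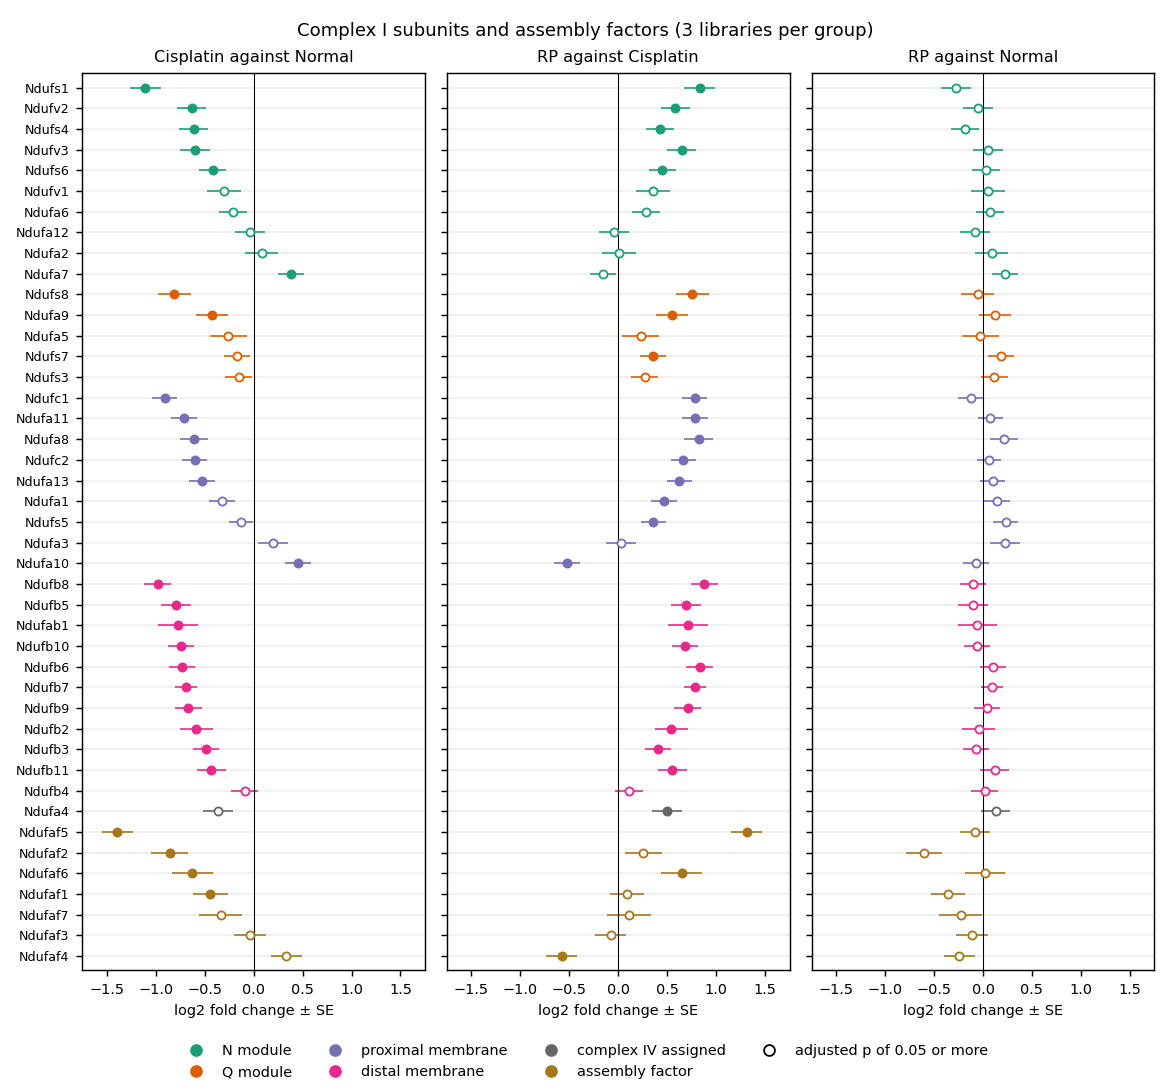
Log2 fold changes (x axes, points, bars ± SE) of the members reported by name in the 3 comparisons, coloured by module, filled where the adjusted p was under 0.05. Most filled points lie left of 0 in Cisplatin against Normal and right of 0 in RP against Cisplatin, and no point is filled in RP against Normal.

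Summed over the 37 subunits, the Normal libraries held 13784, 13421 and 16228 CPM, the Cisplatin libraries 10282, 10320.2 and 12649.7, and the RP libraries 14482, 15738 and 13784. Every Cisplatin sum was below every Normal and every RP sum, while Normal and RP overlapped. The Cisplatin mean of 11084 CPM was 0.766 of the Normal mean of 14477. With plain library size as the scaling, the Cisplatin sums were 10476, 10166 and 10749 and the ratio was 0.722. On the TMM scale subunits tended to be high or low together within a library. Normal 3 was the highest Normal library in 32 of 37 subunits, Cisplatin 3 the highest Cisplatin library in 28, and RP 2 the highest RP library in 28. The TMM factor of 0.850 raises every gene's level in Cisplatin 3. The same shares over all genes were not computed, so whether this order is particular to the subunits is not known. In bulk tissue fewer cells of a type and less RNA per cell cannot be told apart.

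The distal membrane module held the most members that fell. Of its 11 measured subunits 10 fell and 0 rose, the median log2 fold change was -0.69, and the summed level in Cisplatin was 0.638 of that in Normal. The proximal membrane module followed with 5 fallen and 1 risen of 9 and a median of -0.53. In the N module 5 of 10 fell and 1 rose with a median of -0.36, and in the Q module 2 of 6 fell and 1 rose with a median of -0.21. The summed ratios were 0.789, 0.830 and 0.878 in that order. Of the 7 core subunits 3 fell and 1 rose, and of the 29 accessory subunits, Ndufa4 aside, 19 fell and 2 rose. Of all genes 28.2% fell and 26.3% rose, and the Q module, with 33.3% fallen and 16.7% risen, was not far from these shares. Each module and the core subunits hold few genes, and differences between modules were not tested.

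**Figure D2:**
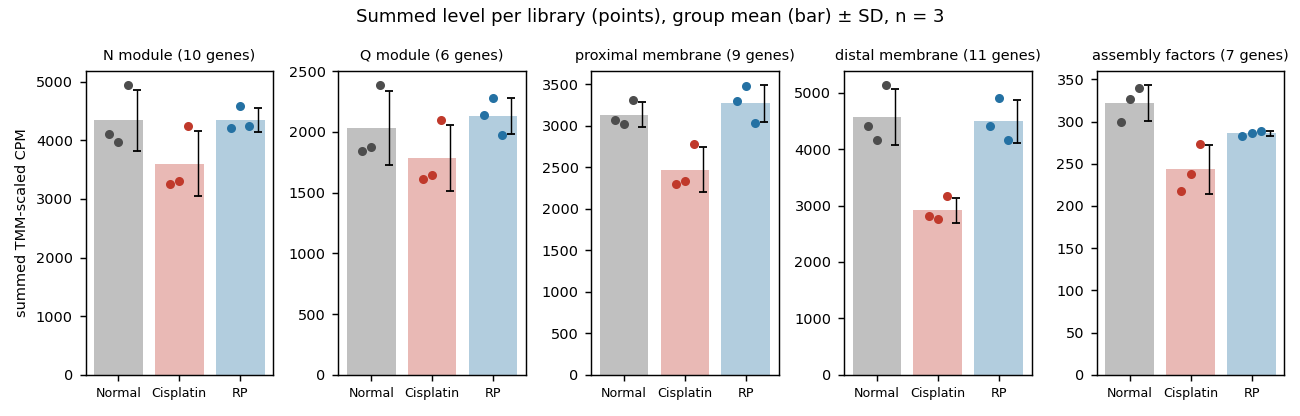
Summed TMM-scaled CPM (y axes, from 0) of each module and of the assembly factors in each library (points), with the group mean (bars) ± SD, n = 3. The distal membrane module shows the lowest ratio of Cisplatin to Normal, 0.638, and its 3 Cisplatin libraries lie below all Normal and RP libraries.

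Ndufs1, the largest subunit of the N module and a carrier of iron-sulfur clusters (GRCm38 chr1:63143596-63176833, minus strand), was at 386, 324 and 471 CPM in Normal, 183, 186 and 180.4 in Cisplatin and 285, 384 and 308 in RP. All Cisplatin libraries lay close together and below every other library. The fall from 394 ± 74.2 to 183 ± 2.80 CPM (SD, n = 3) was a log2 fold change of -1.10 ± 0.16 (SE, adjusted p = 5.91e-05), 2.15-fold, the largest among the subunits. Ndufv2, the core subunit beside the flavin-bearing Ndufv1, was at 459, 469 and 622 CPM in Normal and 313, 302 and 386 in Cisplatin. These groups did not overlap, and Ndufv2 fell by 0.63 ± 0.15 on the log2 scale (adjusted p = 0.0029). Ndufs4, an accessory subunit whose loss in mice causes a fatal encephalopathy, was at 310.0, 295 and 374 CPM in Normal and 188, 210.5 and 242 in Cisplatin. Again the groups did not overlap, and Ndufs4 fell by 0.61 ± 0.14 (adjusted p = 0.00284).

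Ndufv3 and the zinc-binding Ndufs6, both accessory subunits of the N module, fell by 0.59 and 0.42 on the log2 scale, and the Ndufs6 call was lost without Normal 3, Cisplatin 1 or Cisplatin 2. Ndufv1, which binds NADH and the flavin, had a log2 fold change of -0.30 and was not called, nor were the accessory subunits Ndufa6 at -0.21 and Ndufa2 at 0.08. Ndufa12, which takes the place that its relative Ndufaf2 holds during assembly, showed the smallest change of any subunit. It was at 426, 436 and 516 CPM in Normal, 388, 393 and 558 in Cisplatin and 433, 440.2 and 425 in RP. The Cisplatin libraries spanned the Normal range on both sides, and the log2 fold change was -0.04 ± 0.15 (adjusted p = 0.838). Ndufa7, an accessory subunit, went the other way, from 233, 238 and 284 CPM in Normal to 301, 326 and 356 in Cisplatin. Its groups did not overlap, and it rose by 0.38 ± 0.13 (adjusted p = 0.0233). The call of Ndufa7 was lost without Normal 1, Normal 2 or Cisplatin 3.

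In the Q module, Ndufs8, a core subunit with iron-sulfur clusters that hand electrons towards ubiquinone (chr19:3908863-3912774, minus strand), was at 154, 147 and 196 CPM in Normal and 85.5, 89.8 and 108 in Cisplatin. The groups were well apart, and Ndufs8 fell by 0.81 ± 0.17 (adjusted p = 0.00113). Ndufa9, an accessory subunit that binds NADPH, was at 156, 149 and 216 CPM in Normal and 122, 119.7 and 147 in Cisplatin. The highest Cisplatin library came near the lowest Normal library, and Ndufa9 fell by 0.42 ± 0.16 (adjusted p = 0.0403). The call of Ndufa9 was lost without Normal 3, Cisplatin 1, Cisplatin 2 or RP 1. The core subunits Ndufs3 and Ndufs7 and the accessory Ndufa5, at -0.15, -0.17 and -0.26, were not called.

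Ndufc1, a small accessory subunit of the proximal membrane module (chr3:51404677-51408988, minus strand), was at 667, 666 and 688 CPM in Normal, 338, 368 and 373 in Cisplatin and 609.6, 696 and 548 in RP. No Cisplatin library came near the range of the other groups, and Ndufc1 fell 1.87-fold, by 0.91 ± 0.13 on the log2 scale (adjusted p = 5.6e-05). Ndufa11, which lies in the membrane arm, was at 222, 207 and 259.9 CPM in Normal and 129, 139 and 154 in Cisplatin. It fell by 0.71 ± 0.13 (adjusted p = 0.000451). Ndufa8, on the intermembrane space side of the arm, was at 258, 227 and 276 CPM in Normal and 157, 169.5 and 173 in Cisplatin. It fell by 0.61 ± 0.15 (adjusted p = 0.00316), and neither gene's groups overlapped. Ndufc2 and Ndufa13 also fell, by 0.60 and 0.53, while Ndufa1, Ndufs5 and Ndufa3 at -0.32, -0.13 and 0.20 were not called.

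Ndufa10, an accessory subunit with the fold of a nucleoside kinase (chr1:92439010-92473860, minus strand), was the exception of this module. It was at 354, 355 and 365 CPM in Normal, 460.1, 433 and 577 in Cisplatin and 354, 334 and 331 in RP. Cisplatin libraries were above all others, and the rise of 0.45 ± 0.13 (adjusted p = 0.0101) was called in each of 18 other settings.

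Ndufb8, an accessory subunit of the distal membrane module often used as a protein marker of assembled complex I (chr19:44548572-44555440, minus strand), was at 841, 816 and 1021 CPM in Normal, 432, 442 and 484 in Cisplatin and 805, 914 and 778 in RP. Every Cisplatin library was far below the others. Ndufb8 fell 1.97-fold, by 0.98 ± 0.14 on the log2 scale, with the lowest adjusted p of the subunits in this comparison (4.99e-05). Ndufb5, another accessory subunit of this module, was at 679.6, 562 and 765 CPM in Normal and 357, 368 and 432 in Cisplatin. Its groups did not overlap, and it fell by 0.79 ± 0.15 (adjusted p = 0.000621). Ndufab1, the mitochondrial acyl carrier protein, which also serves fatty acid synthesis, was at 29.2, 22.8 and 30.0 CPM in Normal and 19.2, 16.4 and 12.4 in Cisplatin. It fell by 0.77 ± 0.21 (adjusted p = 0.00598) without overlap.

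The other 7 distal subunits that fell were Ndufb10, Ndufb6, Ndufb7, Ndufb9, Ndufb2, Ndufb3 and Ndufb11, by 0.74, 0.73, 0.69, 0.67, 0.59, 0.48 and 0.43. The Ndufb11 call was lost without Normal 3, Cisplatin 1 or Cisplatin 2. Ndufb7 carries paired cysteines of the intermembrane space type and Ndufb9 binds an acyl carrier protein, and both are accessory. Ndufb4 alone among the 11 was not called, at 324, 324 and 362 CPM in Normal, 290.0, 273 and 385 in Cisplatin and 346, 345 and 330.4 in RP. Cisplatin 3 lay above all Normal libraries and the other Cisplatin libraries below them, and the log2 fold change was -0.09 ± 0.14 (adjusted p = 0.605). Ndufb4 was singled out after its values were seen. Ndufa4, the member assigned to complex IV, was at 343, 379 and 455 CPM in Normal, 297, 272 and 346 in Cisplatin and 428, 489 and 369.8 in RP. Cisplatin 3 overlapped the lowest Normal library, and the log2 fold change of -0.36 ± 0.15 was not called (adjusted p = 0.0575). Without Ndufa4, 22 of 36 subunits fell and the median was -0.51.

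**Figure D3:**
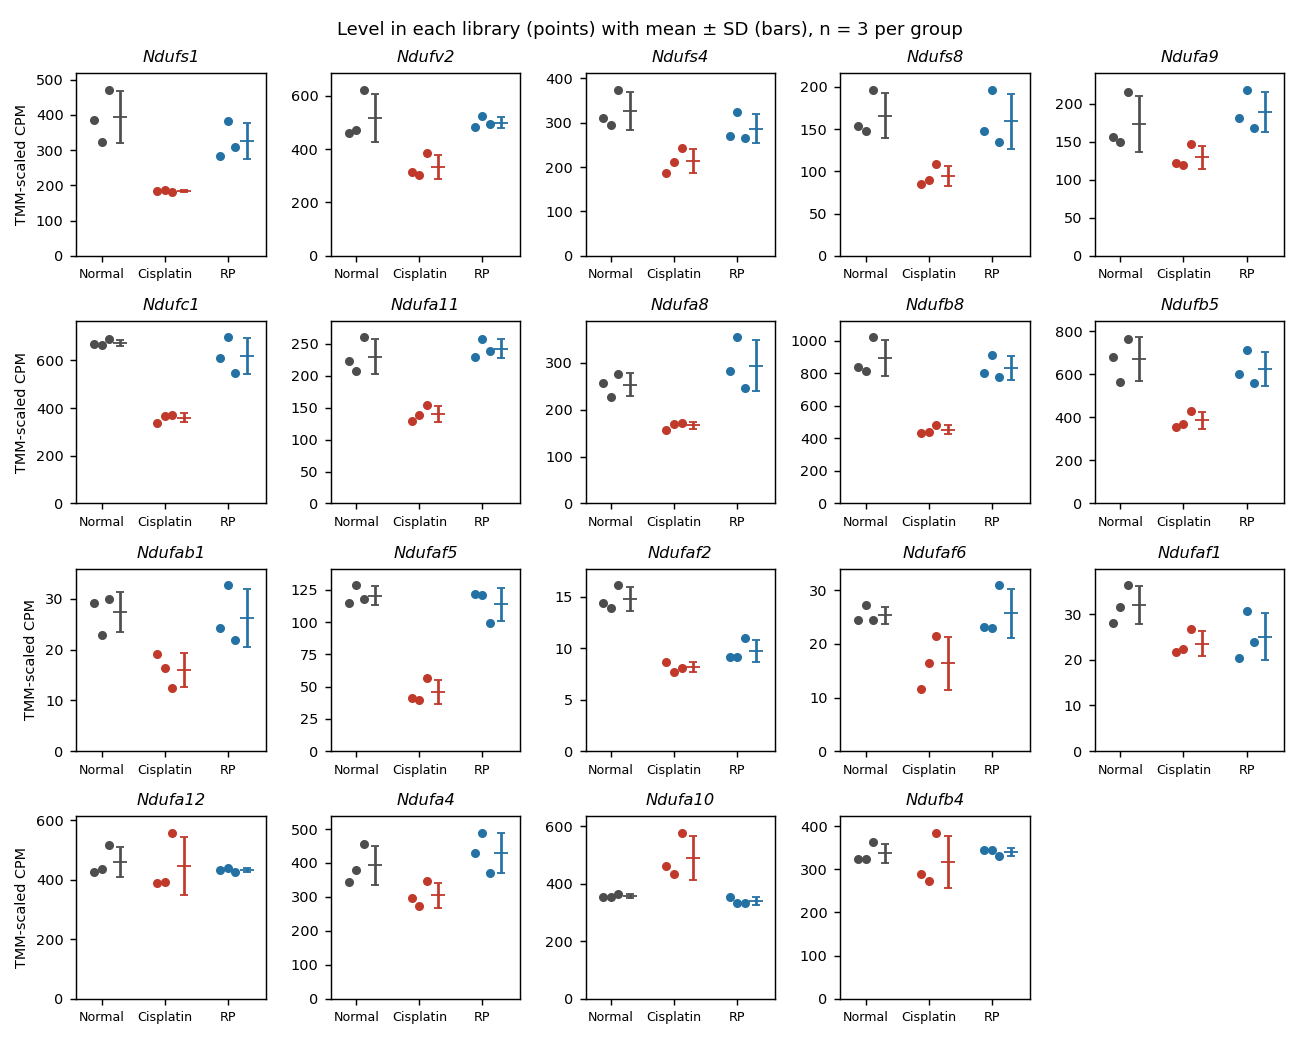
TMM-scaled CPM (y axes, from 0) of 19 members in each library (points), with group mean ± SD (bars), n = 3. Cisplatin points lie below the other groups for Ndufs1, Ndufc1, Ndufb8 and Ndufaf5, above them for Ndufa10, and on both sides of them for Ndufa12 and Ndufb4.

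The assembly factors had means of 12.1 to 120.3 CPM in Normal. Ndufaf5, a hydroxylase that acts on Ndufs7 early in assembly (chr2:140170649-140203689, plus strand), showed the largest change of all 44 members. It was at 115, 129 and 118 CPM in Normal, 41.4, 39.5 and 56.9 in Cisplatin and 121, 121 and 98.9 in RP. Cisplatin libraries were far below both other groups. Ndufaf5 fell 2.62-fold, by 1.39 ± 0.16 on the log2 scale (adjusted p = 7.99e-06). Its binding partner Ndufaf8 stood outside the naming rule because the files list it as 1810043H04Rik, an older RefSeq name. That gene rose under cisplatin, from 69.0 ± 9.93 to 126 ± 29.1 CPM (SD, n = 3; log2 fold change 0.87 ± 0.17, adjusted p = 0.000626).

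Ndufaf2, which helps the N module to join and is a relative of Ndufa12 (chr13:108002715-108158623, minus strand), was at 14.4, 13.9 and 16.1 CPM in Normal, 8.69, 7.70 and 8.09 in Cisplatin and 9.10, 9.14 and 11.0 in RP. Both cisplatin-treated groups were below Normal with no overlap. Ndufaf2 fell by 0.86 ± 0.19 in Cisplatin against Normal (adjusted p = 0.00168). Ndufaf6, needed for the ND1 part of the membrane arm, was at 24.5, 27.2 and 24.4 CPM in Normal and 11.5, 16.4 and 21.4 in Cisplatin. It fell by 0.63 ± 0.21 (adjusted p = 0.0217), with a wide spread in Cisplatin, and the call was lost without Normal 2, Cisplatin 1 or Cisplatin 2. Ndufaf1, a part of the assembly complex of the proximal membrane arm, was at 28.0, 31.6 and 36.3 CPM in Normal and 21.6, 22.3 and 26.6 in Cisplatin. It fell by 0.44 ± 0.18 (adjusted p = 0.0475), a call lost in 9 of 18 other settings. Ndufaf3 and Ndufaf4, which bind each other on the early Q module, and Ndufaf7, a mitochondrial methyltransferase, had log2 fold changes of -0.04, 0.33 and -0.34 and were not called.

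Because many members moved together, the letters around their start sites were searched. RefSeq windows of 250 bases before to 50 bases after a start (GRCm38.p6) were found for 39 of 44 members, 41 windows in all. Motifs of 4 regulators of respiratory genes were searched on both strands, and the shares of windows that hold each are given for the members and for all 32851 windows. The NRF1 letters, GCGC and TGCGC with any base between them, were in 24.4% of the member windows and in 4.60% of all windows. The YY1 letters AAGATGGC were in 17.1% and 2.75%. The GABPA letters CCGGAAG were in 12.2% and 8.86%, and the ERR letters TNAAGGTCA in 2.44% and 1.28%. In the 12466 windows of genes tested, which are richer in G and C, the shares were 9.39% for NRF1, 4.17% for YY1, 16.2% for GABPA and 0.762% for ERR. A match is a description of letters and no evidence of binding.

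The 7 YY1 matches in member windows lie 22 to 38 bases after the start and all hold the annotated start codon (the ATG inside the motif, GENCODE M21), so coding sequence and motif share these letters. They are shown because they belong to subunits of every module, 5 that fell and 2 not called, with the motif in capitals.
Ndufs4: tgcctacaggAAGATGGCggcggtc
Ndufs6: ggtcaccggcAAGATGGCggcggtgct
Ndufa9: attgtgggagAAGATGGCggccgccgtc
Ndufs7: ggccgaggccAAGATGGCggcgctggcg
Ndufc1: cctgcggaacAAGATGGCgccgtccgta
Ndufa3: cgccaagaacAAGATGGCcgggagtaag
Ndufb8: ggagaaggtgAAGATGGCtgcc
On the minus strand these are chr19:44555393-44555414 for Ndufb8, chr3:51408916-51408943 for Ndufc1, chr13:114388045-114388069 for Ndufs4, chr13:73328433-73328459 for Ndufs6 and chr6:126849098-126849125 for Ndufa9. On the plus strand they are chr10:80249463-80249490 for Ndufs7 and chr7:3617385-3617412 for Ndufa3. Ndufs7 and Ndufa3 were not called in Cisplatin against Normal, and the other 5 fell.

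NRF1 matches occurred in members that fell and in members that were not called. Among windows of subunits that fell, 3 of 20 held the letters, and among those of subunits not called, 5 of 12 did. Counted by gene these were 3 of 20 and 4 of 11, because 2 overlapping windows of Ndufa5 hold the same match. Subunits that rose had 3 windows from 2 genes, Ndufa10 and Ndufa7, and these held no match to NRF1, YY1, GABPA or ERR. The matches of 3 subunits that fell, of the most changed assembly factor Ndufaf5 and of Ndufb4 are shown for comparison, motif in capitals.
Ndufa11: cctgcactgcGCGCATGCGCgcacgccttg
Ndufa8: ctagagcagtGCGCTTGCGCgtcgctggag
Ndufs6: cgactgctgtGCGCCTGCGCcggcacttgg
Ndufaf5: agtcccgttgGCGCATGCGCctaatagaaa
Ndufb4 at -22: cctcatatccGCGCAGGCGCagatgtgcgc
Ndufb4 at -79: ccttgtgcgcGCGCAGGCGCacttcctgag
Ndufb4 at -191: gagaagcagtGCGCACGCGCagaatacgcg
Ndufb4 ERR at -57: ttcctgagccTGAAGGTCAgactcgagag
Positions are counted from the RefSeq start. The Ndufaf5 stretch is chr2:140170652-140170681 and that of Ndufa11 is chr17:56717692-56717721, both on the plus strand. The Ndufa8 stretch is chr2:36049349-36049378 and that of Ndufs6 is chr13:73328479-73328508, both on the minus strand, and those of Ndufb4 lie between chr16:37654371 and chr16:37654569 on the minus strand. Ndufb4, the distal subunit that was not called, thus carried 3 NRF1 matches, all in reverse orientation, and the only ERR match among the members.

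In RP against Cisplatin, a comparison that shares the Cisplatin libraries with the one above, 26 of 37 subunits rose and 1 fell. Over all genes 24.6% rose and 24.2% fell, 48.8% in all. The median log2 fold change of the subunits was 0.54, with a range of -0.53 to 0.88, beside 0.07 over all genes. In 27 subunits all RP libraries were above all Cisplatin libraries, and in 1 all were below, against 29% and 27.8% of all genes, 56.8% in all. The summed subunit level in RP, a mean of 14668 CPM, was 1.32 times that in Cisplatin. By module, 10 of 11 distal, 7 of 9 proximal, 5 of 10 N and 3 of 6 Q subunits rose, with medians of 0.69, 0.62, 0.39 and 0.31.

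Ndufb8 showed the largest rise of a subunit, 1.84-fold from 453 ± 27.8 to 833 ± 72.1 CPM (SD, n = 3; log2 fold change 0.88 ± 0.14, adjusted p = 0.000161). Ndufs1 rose by 0.83 ± 0.16 to 325 ± 51.9 CPM (adjusted p = 0.000709), and its RP libraries were all above its Cisplatin libraries. Ndufb6 rose by 0.83, Ndufa8 by 0.82 and Ndufb7, Ndufa11 and Ndufc1 by 0.78 each. Several subunits that had not been called in Cisplatin against Normal rose here. Ndufs7 rose by 0.36 (adjusted p = 0.0392), Ndufs5 by 0.36 (adjusted p = 0.0283), Ndufa1 by 0.47 (adjusted p = 0.00983) and Ndufa4 by 0.49 (adjusted p = 0.0164). The Ndufs7 call was lost in 7 of 18 other settings and the Ndufs5 call in 5, both without a filter and without Cisplatin 1, Cisplatin 2, RP 1 or RP 2, and Ndufs7 also without Normal 2 or Cisplatin 3. The Ndufa4 call was lost without Cisplatin 2 or RP 2. Ndufa10 was the subunit that fell, by 0.53 ± 0.13 (adjusted p = 0.00474), from 489.9 ± 76.6 to 339.7 ± 12.5 CPM. Ndufa7, which rose in Cisplatin against Normal, had a log2 fold change of -0.16 (adjusted p = 0.331). Ndufb4 and Ndufa12 had 0.11 and -0.04 and were not called. Without RP 2 the number of subunits that rose was 17.

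Of the assembly factors, Ndufaf5 rose 2.48-fold, by 1.31 ± 0.16 on the log2 scale (adjusted p = 1.99e-05), and Ndufaf6 by 0.65 ± 0.21 (adjusted p = 0.0203). The Ndufaf6 call was lost without Cisplatin 1, Cisplatin 2 or RP 3. Ndufaf4 fell by 0.58 ± 0.16 (adjusted p = 0.008), from 98.6, 105 and 128 CPM to 67.5, 67.9 and 86.4, with no overlap. Ndufaf2 and Ndufaf1 had log2 fold changes of 0.26 and 0.09 and were not called. Ndufaf8, listed as 1810043H04Rik, fell by 0.77 (adjusted p = 0.00176).

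In RP against Normal 0 of 44 members were called by edgeR's quasi-likelihood test, and 0 by DESeq2 and by limma-voom. Only 0.505% of all genes were called in this comparison, 0.187% risen and 0.319% fallen, so a count of 0 does not set the members apart. The subunits' log2 fold changes ran from -0.27 to 0.26, with a median of 0.05 and standard errors of 0.114 to 0.200. At unadjusted p under 0.05 there were 0 subunits and 1 assembly factor, Ndufaf2, whose 9.74 ± 1.09 CPM in RP lay below the 14.8 ± 1.18 of Normal (SD, n = 3; log2 fold change -0.60 ± 0.19, unadjusted p = 0.00607, adjusted p = 0.188). Groups did not overlap in Ndufa3 and Ndufs5, both higher in RP, and in Ndufaf2, 3 of 44 members beside 19.2% of all genes, 9.65% higher and 9.53% lower. Standard errors of this size leave changes of the order of those just named undecided.

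There are 6 members that overlap an exon of a gene on the opposite strand within their last 500 bases, where 3′ tags fall, and the strand setting of the counting is not given in the sources used here. They are Ndufaf2, Ndufaf3, Ndufb2, Ndufb6, Ndufa2 and Ndufa3, and whether their reads were counted apart from those of the partners is not known. The partner of Ndufaf3, Impdh2, was at 10.1 CPM in Normal and 27.4 in Cisplatin, and that of Ndufb2, Braf, at 23.2 and 26.0. The partner of Ndufa2, Tmco6, was at 15.4 and 10.9 CPM, and that of Ndufa3, Tfpt, at 2.80 and 3.30. By name, Ndufab1 and Ndufb4 have the pseudogenes Ndufab1-ps and Ndufb4c, and Ndufa4 has the protein-coding relative Ndufa4l2. Sequences were not compared, but reads may be shared with these, so the values of Ndufab1, Ndufb4 and Ndufa4 are less certain. Copies of other members under other names were not searched.

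Among 13 further complex I assembly factors with other names, 3 rose and 3 fell in Cisplatin against Normal, with a median of 0.02. These counts are 23.1% each, near the shares of all genes, 26.3% risen and 28.2% fallen. Tmem126a, a factor for the distal arm, was at 91.2 ± 5.64 CPM in Normal and 37.2 ± 1.51 in Cisplatin (SD, n = 3; log2 fold change -1.29 ± 0.12, adjusted p = 1.44e-06). Timmdc1, which acts on the ND1 part, fell by 1.39 (adjusted p = 2.05e-05), and Atp5sl, an older name of the distal arm factor Dmac2, fell by 0.86 (adjusted p = 0.000528). All 3 rose in RP against Cisplatin, by 1.18, 0.76 and 0.87. Tmem186, Tmem126b and Aifm1 rose under cisplatin, by 1.12, 0.56 and 0.45. Ndufa4l2, a relative of Ndufa4, fell by 1.03 from 6.21 ± 1.22 CPM to 3.03 ± 0.315 (adjusted p = 0.0101).

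**Figure D4:**
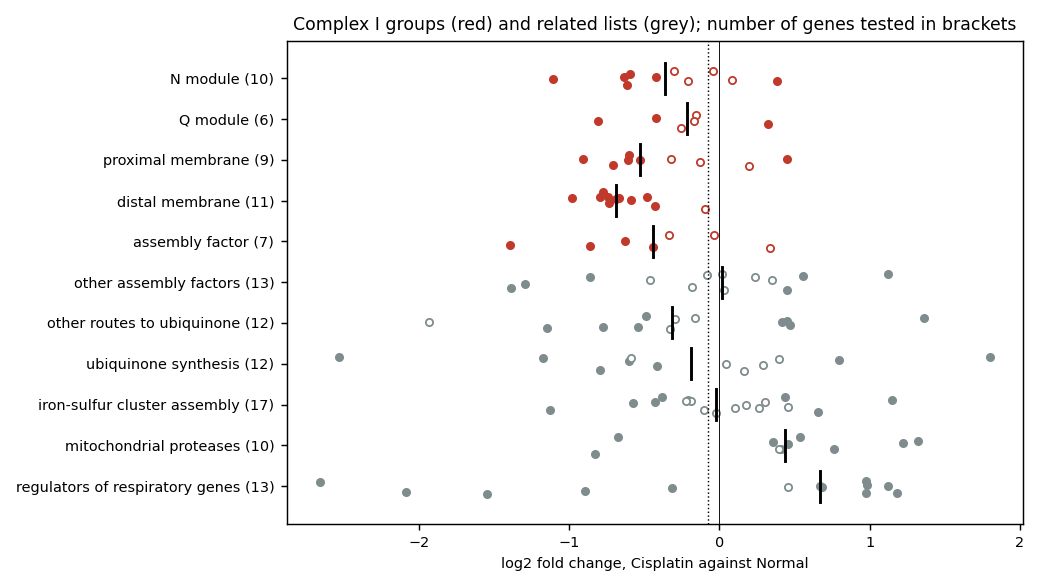
Log2 fold changes in Cisplatin against Normal (x axis) of the complex I groups (red) and related lists (grey), a point per gene, filled where called, with the list median (black bar) and the median of all genes (dotted line, -0.08). The distal membrane points all lie below 0, from -0.98 to -0.09, while each related list has points on both sides.

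Genes next to complex I in the pathway moved in both directions. Of 12 genes that deliver electrons to ubiquinone by other routes, 4 fell and 4 rose in Cisplatin against Normal. In RP against Cisplatin 5 of them rose and 2 fell. Of all genes 28.2% fell and 26.3% rose in the first comparison, and 24.6% rose and 24.2% fell in the second. The subunits Sdhb, Sdhc and Sdhd of complex II fell by 0.78, 0.49 and 0.54, and Gpd2, the mitochondrial glycerol phosphate dehydrogenase, by 1.15 (adjusted p = 5.97e-05). Sdha, also of complex II, had a log2 fold change of -0.30 and was not called (adjusted p = 0.112). The electron transfer flavoprotein genes Etfa, Etfb and Etfdh rose by 0.42, 0.47 and 0.45, and the proline dehydrogenase Prodh by 1.36. Of 12 genes tested for making ubiquinone, 5 fell and 2 rose. Coq7, a hydroxylase of that route, showed the largest of these changes, from 81.3 ± 20.2 CPM to 14.0 ± 2.84 (SD, n = 3; log2 fold change -2.53 ± 0.21, adjusted p = 7.61e-07), and rose by 2.18 in RP against Cisplatin. Coq3 and Adck4 rose under cisplatin by 0.80 and 1.80.

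Of 17 genes that build iron-sulfur clusters, which the N and Q modules carry, 4 fell and 3 rose, with a median of -0.02. The shares of all genes were 28.2% fallen and 26.3% risen. Bola1, of the BolA family, and the chaperone Hspa9 rose by 1.15 and 0.65, and Lyrm4 and Isca1, which serve cluster assembly, fell by 0.58 and 0.38. Of 10 mitochondrial proteases and their scaffolds 7 rose and 2 fell, with a median of 0.43. Clpp, the matrix protease, rose from 37.4 ± 4.56 to 93.4 ± 15.3 CPM (SD, n = 3; log2 fold change 1.32 ± 0.15, adjusted p = 9.52e-06), and Afg3l2 and Phb2 rose by 1.22 and 0.76. In RP against Cisplatin 6 of these 10 fell and 2 rose, beside 24.2% and 24.6% of all genes.

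Of 13 regulators of respiratory genes 7 rose and 5 fell under cisplatin, beside 26.3% and 28.2% of all genes. The coactivators Ppargc1a and Ppargc1b fell by 1.55 and 0.89. The nuclear receptor Esrrg fell by 2.65, from 17.0 ± 8.23 to 2.71 ± 0.630 CPM (SD, n = 3, adjusted p = 6.43e-05). Its relative Esrra rose by 1.12 (adjusted p = 1.12e-05). Another relative, Esrrb, fell by 2.08, from 3.47 ± 2.12 to 0.813 ± 0.143 CPM (SD, n = 3, adjusted p = 0.00503). These 3 genes encode the ERR receptors whose letters were searched above. Of the other factors searched, Yy1 rose by 1.18, Nrf1 by 0.98 and Gabpa by 0.98. In RP against Cisplatin 4 of the 13 rose and 7 fell, beside 24.6% and 24.2% of all genes. Ppargc1a rose by 1.07 there and Esrra fell by 1.35. No gene of these related lists was called in RP against Normal, where 0.505% of all genes were called.

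Many markers of fibre types and other cells also differed between the groups in the same libraries. Summed over the 10 skeletal muscle fibre markers, the Cisplatin mean was 0.755 of the Normal mean. For 12 fast fibre markers it was 0.782, beside 0.766 for the subunits. The RP means were 1.01, 1.06 and 1.01 of the Normal means in that order. A sum is weighted towards its most abundant genes. In Cisplatin against Normal 5 of the 10 fell and 2 rose, and 6 of the 12 fell and 1 rose. The shares of all genes were 28.2% fallen and 26.3% risen. The median log2 fold changes were -0.21 and -0.63, with 5 of the 10 and 7 of the 12 below 0. For the subunits the median was -0.48, with 32 of 37 below 0. All 9 slow fibre markers, an oxidative fibre type, fell in Cisplatin against Normal with a median of -2.74. The slow fibre sum varied among the Normal libraries, from 403 CPM in Normal 2 to 4526 in Normal 3, and Normal 3 was also the Normal library with most subunits at their highest. Without Normal 3, 19 of 37 subunits fell and 2 rose in Cisplatin against Normal. In RP the slow fibre sum was 420.3 to 759.8 CPM, while the subunit sum was at 13784 to 15738. The 6 adipocyte markers all fell in Cisplatin against Normal with a median of -3.02 and all rose in RP against Cisplatin with a median of 2.92. Their sums were 1091, 3638 and 1479 CPM in Normal, 776.9, 722 and 349 in Cisplatin and 1712, 1999 and 2175 in RP. In RP against Normal, where 0.505% of all genes were called, 0 of the 6 were called. Of the other marker lists, 5 of 5 erythroid and 1 of 8 fibroblast markers fell there and no other marker was called. All 9 slow fibre markers were below 0 in RP against Normal, with a median of -2.17. Fibroblast markers, 8 genes that all fell under cisplatin and all rose in RP against Cisplatin, summed to 3514 to 5689 CPM in Normal libraries, 394 to 779.6 in Cisplatin libraries and 2174 to 3303 in RP libraries. Erythroid markers summed to 4158 to 8991, 34.0 to 60.4 and 64.9 to 410.0, macrophage markers to 211 to 274, 47.1 to 85.2 and 109 to 171, and endothelial markers to 264 to 316, 197 to 269 and 225 to 319.7. In Cisplatin against Normal 7 of 8 macrophage markers fell and 1 rose, and 4 of 8 endothelial markers fell and 1 rose. No marker of these lists was at 0 in every library, and the part of these shifts in the complex I values was not tested.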

How the data were processed

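The authors deposited raw read counts per gene symbol for 9 QuantSeq 3′ libraries, 3 per group, on 23282 rows each. Bowtie2, edgeR and mm10 were used per the submitters' processing notes; for the versions, the counting program, its strandedness and the annotation, the sources used here give nothing. Rows sharing a symbol were summed (79 rows, 35 symbols), and no pair of replicates matched as copies would (chi-square per degree of freedom 11.3 to 28.9). The members and lists were chosen with earlier results of these data known.

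All genes were fitted with edgeR 4.0.16 in R 4.3.3: filterByExpr by group (12859 genes, all 44 members), TMM scaling, glmQLFit on 9 libraries, glmQLFTest and Benjamini-Hochberg adjustment. SEs are the log2 fold change over the square root of F. With plain library size the median of all genes moved from -0.08, 0.07 and -0.01 to -0.15, 0.21 and 0.06 in the 3 comparisons, and changes are given on the TMM scale. The procedure was also run on simulated counts. Far fewer genes changed there than were called in Cisplatin against Normal, so that run does not test the setting of these data. Alternatives were RLE scaling, library size only, no filter, limma-voom (limma 3.58.1), DESeq2 1.42.0, a minimum of 5 CPM in 3 libraries, the compared groups alone, a replicate block, leaving out Rn45s and leaving out each library.

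Any member could be named. Library values were given for the 3 largest called changes per module and the 4 largest among assembly factors in Cisplatin against Normal, the subunit that changed least, Ndufa4 and members called against their group, and from other lists mainly the 3 called genes of lowest p. Ndufb4, and further members of those lists, were added after their values were seen. Values of 1 subunit and of 1 gene of the other lists are not reported here, although counts and sums include them. Positions are GENCODE M21 (GRCm38, which mm10 names), and start-site windows are RefSeq's (GRCm38.p6). Figures used matplotlib 3.10.9 in Python 3.11.15.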

Additional observations from a re-analysis of the deposited data

How the results depend on the processing

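Of the 29 calls of members in Cisplatin against Normal, 22 held in all 18 alternatives, of the 30 in RP against Cisplatin 20 held, and all 44 members stayed uncalled in RP against Normal. For 36 named gene results, 603 of 648 recomputed values kept their direction and call, 40 lost the call, 5 gained it and 0 reversed. In Cisplatin against Normal, leaving out each library in turn gave 1 to 3 subunits risen, 19 to 25 fallen, 0 to 1 assembly factors risen and 2 to 4 fallen. The lower counts of 1 came without Normal 1, Normal 2 or Cisplatin 3, and those of 2 without Normal 2, Cisplatin 1 or Cisplatin 2. In RP against Cisplatin 17 to 27 subunits and 1 to 2 assembly factors rose, the 17 without RP 2 and the 1 without Cisplatin 1, Cisplatin 2 or RP 3. With library size only, 24 subunits fell and 2 rose in Cisplatin against Normal and 30 rose in RP against Cisplatin, and the share of rises among all called genes moved from 50.5% to 60.2% in RP against Cisplatin and from 36.9% to 60.0% in RP against Normal.

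The labels do not say that equal replicate numbers mark a shared batch. Deviations of same-numbered libraries correlated at -0.124 to 0.158 and those of differently numbered libraries at -0.190 to 0.115, with 6 of 18 best with their own number. The main fit assumed no shared batch, and these values cannot tell whether there was one. A replicate block gave 2 subunits risen and 22 fallen in Cisplatin against Normal, 1 assembly factor risen (Ndufaf4), 26 subunits risen in RP against Cisplatin and 0 in RP against Normal.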
